A study of Mus musculus with 3 samples.

Results

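The 8 genes described here encode enzymes that write or erase DNA methylation in the mouse and 2 proteins that assist the writers. They are Dnmt1, Dnmt3a, Dnmt3b, Dnmt3l, Uhrf1, Tet1, Tet2 and Tet3, taken as a named set of 8 out of 27886 genes listed in any of 3 count tables. All 8 were listed in each table. Male F1 stem cells of the cross C57BL/6 x CAST/EiJ, and cultures derived from them, were captured singly on Fluidigm C1 chips for full-length cDNA libraries. The mESC sample (215 cells) held embryonic stem cells kept in 2i medium, which contains serum, Lif and inhibitors of MEK and GSK3. The CPCC sample (175 cells) held cardiac precursor cell cultures. These came from embryoid bodies made in medium with ascorbic acid and were then passaged with EGF and Fgf2. The CB sample (232 cells) held cells of beating cardiac bodies, picked from aggregates grown with ascorbic acid. There was 1 sample per culture, so no difference between cultures has a replicate check and no test was made.

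Methylation of cytosine in CpG dinucleotides is copied at each DNA replication and can be set anew or removed. Dnmt1 is the maintenance enzyme, and Uhrf1 brings it to hemimethylated DNA behind the replication fork. Dnmt3a and Dnmt3b methylate unmethylated sites de novo, and Dnmt3l is their cofactor without catalytic activity. The TET enzymes Tet1, Tet2 and Tet3 oxidize 5-methylcytosine, the entry to demethylation. Embryonic stem cells in 2i medium are known for low methylation, and the DNMT3 genes are known to be high in cells leaving that state.

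Levels are given as CPM, the counts of a gene summed over a culture and scaled to a common library total, with an exact Poisson interval at 95%. The share of cells with a gene is that at 1 or more counts, with an exact Clopper-Pearson interval at 95%. The libraries carry no molecular identifiers, so the Poisson interval covers the counting of reads and not of molecules. The Clopper-Pearson interval takes cells of a culture as independent draws. Neither interval covers the spread between cells, pools or repeated cultures, so narrow ones are not a measure of precision. The median depth per cell was 1528316 counts in mESC, 1437414 in CPCC and 1397869 in CB. The median number of genes found per cell was 9532, 9252 and 6661, so lower shares of cells in CB are not particular to these 8 genes. Values over a culture also mix cells with fewer transcripts and fewer cells of a type, which summed counts cannot tell apart. The libraries came in 3 pools for mESC, 2 for CPCC and 3 for CB, and which clone or culture went into each is not given, although the mESC label reads triplicate. Median depth by pool was 1182942, 1833519 and 1855334 counts in mESC, 1631467 and 1099806 in CPCC, and 804581, 1750784 and 1596814 in CB. Shares of cells by pool are at full depth and were not adjusted for this. No cell column occurred in more than 1 table. The pools of CPCC and CB differed in their cells. Summed CPM of 10 pluripotent markers was 5705 in CPCC pool 1 and 1239 in pool 2. All 5 macrophage markers were listed, at 0.0899 and 3044 CPM in all. In CB, 8 fibroblast markers summed to 14269, 466 and 14754 CPM in pools 1 to 3, and 10 cardiomyocyte markers to 249, 842 and 17.7 CPM. CB carries the label of mature cardiac cells, but the cardiomyocyte markers stood far under the fibroblast ones in pools 1 and 3. In pool 2 they stood under 5 endoderm markers, which summed to 1392 CPM there, and 5 endothelial ones summed to 653 CPM. Smooth muscle markers summed to 4045 and 7294 CPM in the CPCC pools, and to 3400, 944 and 943 CPM in those of CB. For 5 epithelial markers the sums were 1714 and 481 CPM in the CPCC pools, and 927, 784 and 1391 CPM in those of CB. Levels and shares of cells of the 8 genes are therefore also given by pool, and the part of these cells in them was not tested.

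The promoters of 3 genes are shown: Uhrf1, whose level over cells had the highest correlation with the S phase genes in each culture, and Dnmt3b and Dnmt3l, which had the largest ratios between CPCC and CB among the 8 genes (both below). Tet1, the gene with the highest correlation with Pou5f1 in CPCC, had no entry among the promoters used. Each is the 250 bases before a RefSeq start (GRCm38.p6) on the strand of the gene. Where RefSeq gives several starts, the window without an exon of the gene and with the most CpG was taken. Uhrf1 is chr17:56304063-56304312, Dnmt3b is chr2:153649199-153649448 and Dnmt3l is chr10:78049592-78049841, all on the plus strand. The start used for Dnmt3l lies inside the gene, 7895 bases from its start in GENCODE, against 992 bases for Uhrf1 and 1 for Dnmt3b. Capitals mark the match to TTTNNCGC, an E2F-type motif searched on both strands.
Uhrf1: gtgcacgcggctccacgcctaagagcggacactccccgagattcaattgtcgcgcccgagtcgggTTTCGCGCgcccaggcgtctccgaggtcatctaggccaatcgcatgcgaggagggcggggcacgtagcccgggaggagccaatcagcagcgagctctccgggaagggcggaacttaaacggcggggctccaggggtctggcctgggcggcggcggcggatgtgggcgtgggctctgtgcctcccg
Dnmt3b: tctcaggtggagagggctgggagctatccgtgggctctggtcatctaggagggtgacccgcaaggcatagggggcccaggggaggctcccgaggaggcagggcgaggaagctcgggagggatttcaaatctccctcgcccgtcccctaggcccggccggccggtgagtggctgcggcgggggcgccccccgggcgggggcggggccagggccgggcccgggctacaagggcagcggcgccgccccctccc
Dnmt3l: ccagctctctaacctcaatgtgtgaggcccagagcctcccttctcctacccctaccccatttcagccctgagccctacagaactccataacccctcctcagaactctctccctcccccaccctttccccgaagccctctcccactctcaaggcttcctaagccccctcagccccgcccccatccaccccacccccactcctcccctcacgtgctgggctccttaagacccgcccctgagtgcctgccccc
The Uhrf1 window held the motif 185 bases before the start, and those of Dnmt3b and Dnmt3l did not hold these letters. Of 19116 promoters chosen by the same rule, 4.09% held it, and of the 7 genes of the set with a RefSeq window, 1 did. The GC box GGGCGG was in 6 of the 7 windows and in 28.9% of all. The windows of Uhrf1, Dnmt3b and Dnmt3l held 30, 21 and 4 CpG, against a median of 5 over all promoters. A match is a description of the sequence, not of binding.

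The pair that copies methylation was highest in mESC. Dnmt1 (chromosome 9, 20907209 to 20959888) had 110 CPM in mESC (interval 109 to 111), while CPCC had 52.5 CPM (51.7 to 53.4) and CB 52.9 CPM (52.1 to 53.7). Its pools held 116, 99.1 and 118 CPM in mESC, 66.3 and 39.6 CPM in CPCC, and 36.0, 83.4 and 32.3 CPM in CB. All mESC pools lay above all others, while the pools of CPCC and CB overlapped. Dnmt1 was detected in 95.8% of mESC cells (92.2 to 98.1%), 85.1% of those in CPCC (79.0 to 90.1%) and 58.2% of those in CB (51.6 to 64.6%). With every cell thinned to 430000 counts these shares were 99.0%, 84.7% and 56.7%. By pool they were 97.8%, 93.5% and 95.8% in mESC, 98.7% and 74.0% in CPCC, and 46.4%, 85.9% and 42.4% in CB, all without thinning. So CPCC and CB had the same summed level from different numbers of cells, and among cells with Dnmt1 the median was 53.2 CPM in CPCC and 63.7 CPM in CB.

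Uhrf1 (chromosome 17, 56303321 to 56323486) had its highest summed level in mESC and its lowest in CB. It had 179 CPM in mESC (178 to 180), while CPCC had 79.96 CPM (78.9 to 81.0) and CB 41.5 CPM (40.8 to 42.2). Pools held 235, 148 and 160 CPM in mESC, 118 and 44.7 CPM in CPCC, and 23.4, 89.1 and 5.69 CPM in CB. The CB pools spanned more than the gap between CPCC and CB, and CB pool 2 lay between the CPCC pools. The gene was detected in 96.3% of mESC cells (92.8 to 98.4%), 81.1% of those in CPCC (74.5 to 86.6%) and 40.5% of those in CB (34.1 to 47.1%). The CB share rests on its pools, with 34.8%, 80.8% and 8.24% in pools 1 to 3. CPCC pools had 97.5% and 67.7%, and mESC pools 98.9%, 93.5% and 95.8%. Counts of Uhrf1 are not fully separable from those of Gm5648, a processed pseudogene. Of the stretches of 31 bases in Gm5648, 60.6% also occur in Uhrf1 transcripts. Gm5648 was listed at 16.1, 7.94 and 2.82 CPM in mESC, CPCC and CB. With both added, the log2 ratio of CB over mESC was -2.11, against -2.08 for Uhrf1 alone.

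The de novo group parted in CB. Dnmt3a (chromosome 12, 3806007 to 3914443) was lowest in mESC with 17.7 CPM (17.3 to 18.1). It had 63.7 CPM in CPCC (62.7 to 64.6) and 67.0 CPM in CB (66.2 to 67.9). Pools held 31.8, 13.7 and 7.84 CPM in mESC, 88.7 and 40.3 CPM in CPCC, and 54.1, 79.3 and 61.4 CPM in CB. Every CPCC and CB pool lay above every mESC pool. The share of cells with Dnmt3a was 60.5% in mESC (53.6 to 67.0%), against 79.4% for CPCC (72.7 to 85.2%) and 74.6% for CB (68.5 to 80.04%). By pool it was 66.7%, 57.1% and 54.2% in mESC, 86.1% and 74.0% in CPCC, and 65.2%, 85.9% and 71.8% in CB. In CB its share and that of Tet3 were the highest, with overlapping intervals. Exons of Dnmt3a share 133 bases with the antisense gene Dnmt3aos, and use of strand in counting was not stated.

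Dnmt3b (chromosome 2, 153649450 to 153687730) was highest in CPCC. The gene had 48.5 CPM in mESC (47.8 to 49.2), while CPCC had 139 CPM (138 to 140.5) and CB 11.5 CPM (11.1 to 11.9). The pools of CPCC differed widely, with 235 CPM in pool 1 and 49.6 CPM in pool 2. In mESC they held 72.8, 33.6 and 42.3 CPM, so CPCC pool 2 lay within the mESC pools. CB pools held 11.02, 20.6 and 3.30 CPM and lay under all others. The gene was detected in 79.5% of mESC cells (73.5 to 84.7%), 65.7% of those in CPCC (58.2 to 72.7%) and 21.6% of those in CB (16.4 to 27.4%). By pool it was in 91.1% and 44.8% of cells in CPCC, 94.4%, 70.1% and 66.7% in mESC, and 10.1%, 47.4% and 7.06% in CB. The lower share in CPCC than in mESC thus came from CPCC pool 2, while pool 1 lay within the mESC pools. Among detected cells the median was 146 CPM in CPCC and 42.4 CPM in mESC. Dnmt3c, a rodent paralog of Dnmt3b, had 0.0608 CPM in mESC and was not listed in CPCC or CB.

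Dnmt3l (chromosome 10, 78041947 to 78063622) had the widest range of the set as a ratio. It had 24.3 CPM in mESC (23.8 to 24.8), while CPCC had 153 CPM (152 to 155) and CB 0.248 CPM (0.198 to 0.307). Pools held 12.4, 15.5 and 48.6 CPM in mESC, and 282 and 32.5 CPM in CPCC. Of the CB pools only pool 1 had any, at 1.35 CPM, from 84 counts in 1 of 232 cells. The share of cells was 36.3% in mESC (29.8 to 43.1%), against 49.7% for CPCC (42.1 to 57.4%) and 0.431% for CB (0.0109 to 2.38%). CPCC pools had 83.5% and 21.9%, and mESC pools 27.8%, 33.8% and 56.2%, so that the shares of the cultures overlapped by pool. Where detected, the median was 28.8 CPM in mESC and 301 CPM in CPCC. Of the 78 mESC cells with Dnmt3l, 88.5% also had Dnmt3b, and of the 87 CPCC cells 88.5% did. Among all cells of the culture Dnmt3b was in 79.5% in mESC and 65.7% in CPCC, so the mESC value lay nearer to its background. Cells with Dnmt3a but no Dnmt3b were 10.6% in mESC, 21.3% in CPCC and 59.6% in CB.

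**Figure D1:**
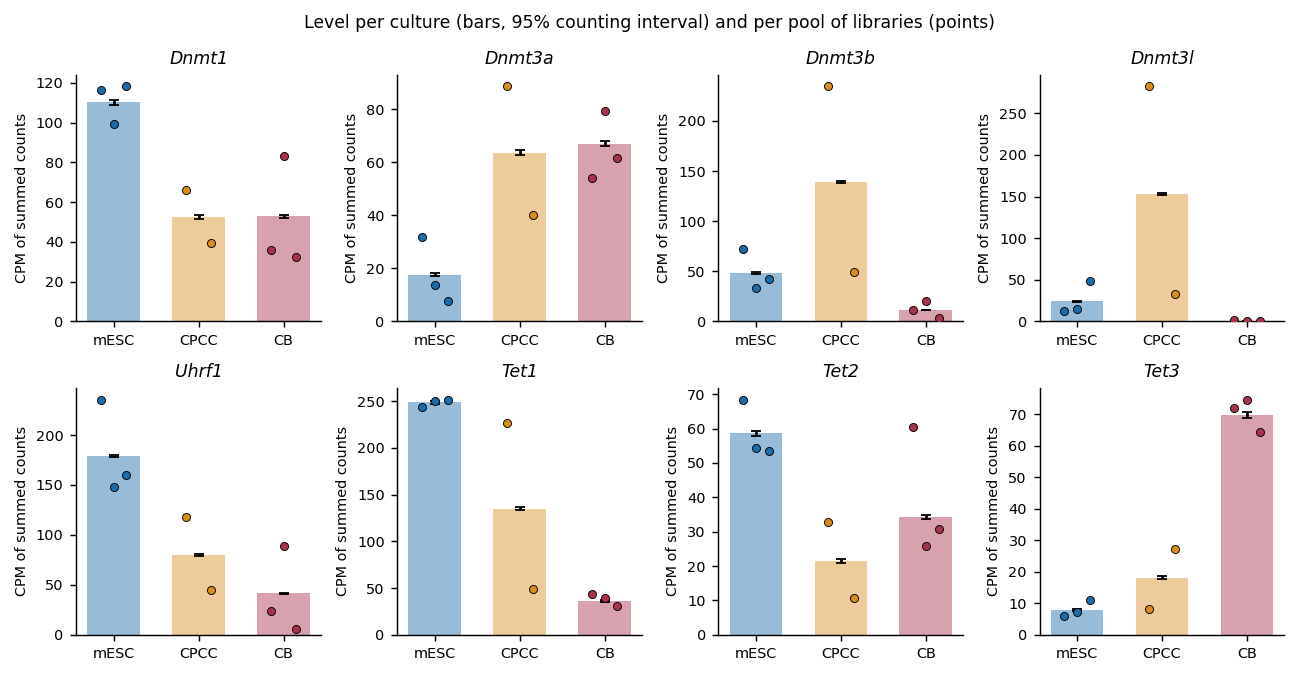
Level of each gene in CPM of summed counts (vertical axis, from 0) in mESC, CPCC and CB, as bars with the 95% counting interval and with the pools of libraries as points. Tet3 was highest in CB (69.8 CPM), Dnmt3b and Dnmt3l in CPCC, and Dnmt1, Uhrf1, Tet1 and Tet2 in mESC, while the points of CPCC lie far apart for Dnmt3b (235 and 49.6 CPM) and Tet1 (227 and 49.1 CPM).

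Among the erasers, Tet1 and Tet3 ran opposite ways. Tet1 (chromosome 10, 62804570 to 62908996) had 249 CPM in mESC (247 to 250), while CPCC had 135 CPM (134 to 136) and CB 36.2 CPM (35.5 to 36.8). The mESC pools were close, with 244, 251 and 252 CPM. CPCC pools held 227 and 49.1 CPM, and CB pools 44.1, 38.8 and 30.3 CPM, so CPCC pool 1 stood near mESC and pool 2 near CB. Detection went from 96.3% of mESC cells (92.8 to 98.4%) to 68.6% of CPCC cells (61.1 to 75.4%) and 33.2% of CB cells (27.2 to 39.7%). By pool it was 97.8%, 93.5% and 97.9% in mESC, 92.4% and 49.0% in CPCC, and 21.7%, 56.4% and 21.2% in CB. In CB, 48.1% of the Tet1 counts came from 10 cells. Other genes were more concentrated. The top 10 cells held 60.8% of the Dnmt3l counts in mESC and 58.1% of those of Dnmt3b in CB. For Tet3 they held 54.3% in mESC and 53.6% in CPCC.

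Tet3 (chromosome 6, 83362373 to 83459084) had 7.97 CPM in mESC (7.67 to 8.27), while CPCC had 18.1 CPM (17.6 to 18.6) and CB 69.8 CPM (68.9 to 70.7). Pools held 6.10, 7.10 and 11.1 CPM in mESC, 8.33 and 27.2 CPM in CPCC, and 71.9, 74.7 and 64.3 CPM in CB. The CB pools were close to each other and above all others, although their marker lists differed as given above. Its share of cells was 32.6% in mESC (26.3 to 39.3%), against 46.9% for CPCC (39.3 to 54.5%) and 72.0% for CB (65.7 to 77.7%). By pool it was 23.3%, 39.0% and 39.6% in mESC, 35.4% and 56.2% in CPCC, and 65.2%, 87.2% and 63.5% in CB, so the shares of mESC and CPCC overlapped. Thinned to 430000 counts per cell, the shares were 29.0%, 41.4% and 70.5%.

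As a ratio, Tet2 (chromosome 3, 133463679 to 133545139) differed less than Tet1 and Tet3 against CB, but more in CPCC over mESC. It had 58.6 CPM in mESC (57.8 to 59.4), while CPCC had 21.4 CPM (20.9 to 22.0) and CB 34.3 CPM (33.7 to 34.9). Pools held 68.4, 54.5 and 53.6 CPM in mESC, 32.8 and 10.8 CPM in CPCC, and 60.5, 25.7 and 30.8 CPM in CB. The highest CB pool lay within the mESC pools. Tet2 was detected in 88.4% of mESC cells (83.3 to 92.3%), 58.3% of those in CPCC (50.6 to 65.7%) and 40.1% of those in CB (33.7 to 46.7%). CB pools were close, with 42.0%, 41.0% and 37.6%, and CPCC pools had 77.2% and 42.7%.

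Single cells with both Tet1 and Tet3 were found in every culture. At a limit of 10 CPM, 164 of 207 mESC cells had Tet1 without Tet3 and 1 had Tet3 without Tet1. These numbers were 81 and 32 of 174 cells in CPCC, and 16 and 96 of 223 cells in CB. Cells with both made up 18.8% of mESC, 13.8% of CPCC and 18.8% of CB. In CPCC pool 1, 56 cells had Tet1 alone and 8 had Tet3 alone, and in pool 2 the numbers were 25 and 24. Cells under 10000 counts (8 in mESC, 1 in CPCC, 9 in CB) were left out here, in the medians and gene combinations above and in the splits and correlations below. The shares of cells of a whole culture or pool include them.

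**Figure D2:**
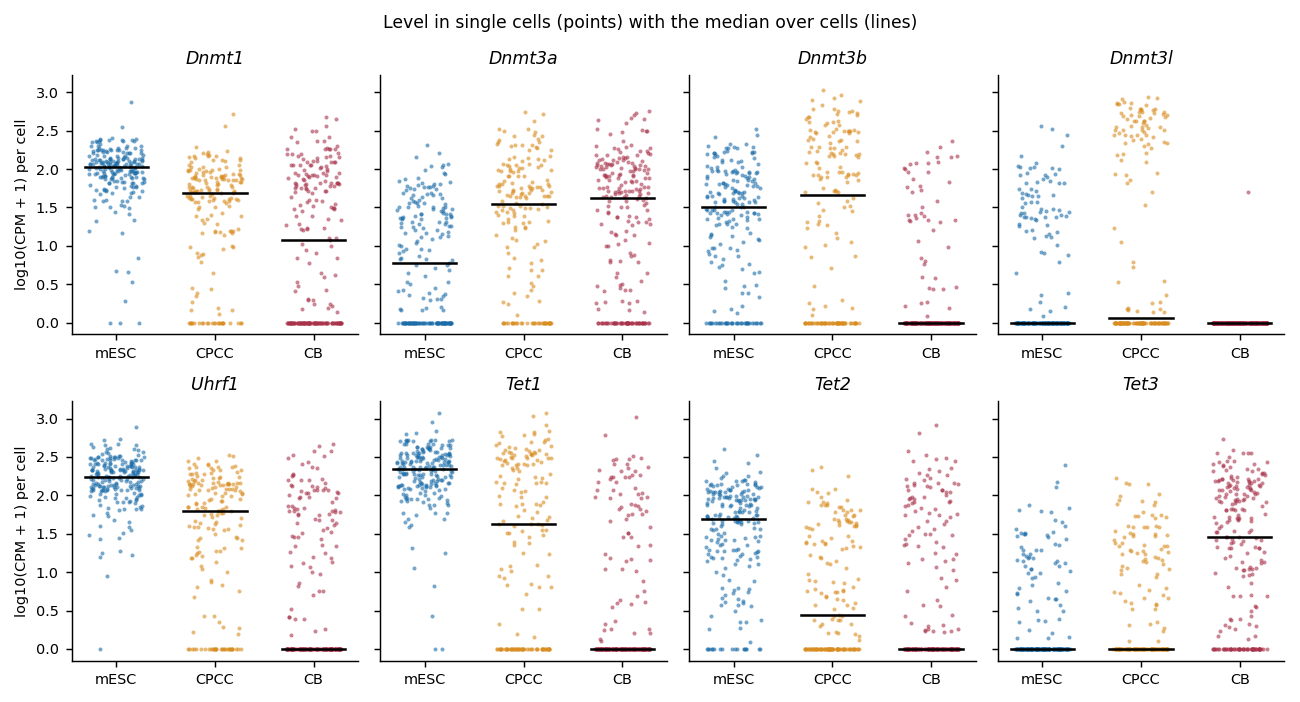
Level of each gene in single cells as log10(CPM + 1) (vertical axis) by culture, 1 point per cell of 10000 or more counts, with the median as a line. Dnmt3l formed a separate upper group of CPCC cells and was seen in 1 CB cell, and the median of Tet3 was 0 CPM in mESC and CPCC and 27.3 CPM in CB.

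Compared per kilobase of transcript, Uhrf1 was the highest member in mESC (49.9 CPM per kilobase), Dnmt3l in CPCC (84.2) and Tet3 in CB (11.7). Neighbours in these orders were not all apart. In CB, Uhrf1 (11.6) and Tet3 (11.7) were nearly equal, and per kilobase of coding sequence Dnmt3a led there (24.6 CPM per coding kilobase). Of the summed level per kilobase of the 3 catalytic DNMT genes, Dnmt3b held 33.4% in mESC, 66.3% in CPCC and 13.7% in CB. Dnmt3a held 5.44%, 13.5% and 35.6%, and per kilobase of coding sequence 13.5%, 26.5% and 61.6%. Of the 3 TET genes, Tet1 held 68.8%, 63.4% and 13.9%, and Tet3 5.33%, 20.5% and 65.0%. Per kilobase of coding sequence Tet1 held 77.7%, 75.8% and 23.9%, and Tet3 2.82%, 11.5% and 52.1%. The Tet3 share was 6.73% in CPCC pool 1 and 49.8% in pool 2, while it lay between 55.3% and 69.3% in the CB pools, all per kilobase of transcript.

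CPCC was set against mESC to see which of the genes differ once the stem cells have left 2i medium. Each ratio is the log2 ratio of (CPM + 1), a scale that draws the ratios of low genes toward 0, and a 2-fold difference was taken as the limit. At least 2-fold higher in CPCC were 4 of the 8 genes, against 15.8% of 11084 genes with a mean of 5 CPM or more. These were Dnmt3l (log2 ratio 2.61), Dnmt3a (1.79), Dnmt3b (1.501) and Tet3 (1.09). At least 2-fold lower were 3 of 8, against 7.42% of all. These were Tet2 (-1.41), Uhrf1 (-1.15) and Dnmt1 (-1.05), and Tet1 had -0.88. The median over the 8 genes was 0.11, against -0.01 over all genes. Every CPCC pool lay above every mESC pool for Dnmt3a alone, against 22.9% of all genes. Every CPCC pool lay below for Dnmt1, Uhrf1, Tet1 and Tet2, against 22% of all.

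CPCC pool 1 decided part of this. Without it, the ratio of Dnmt3b was 0.03 and that of Dnmt3l 0.41, while Tet1 went to -2.32. Without CPCC pool 2, Tet3 was at 0.06, and Dnmt1 (-0.72), Uhrf1 (-0.60) and Tet2 (-0.82) were under 2-fold. Dnmt3a kept to its side of the limit without any pool. Leaving out mESC pool 1 brought Uhrf1 to -0.93 and Tet3 to 0.96.

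**Figure D3:**
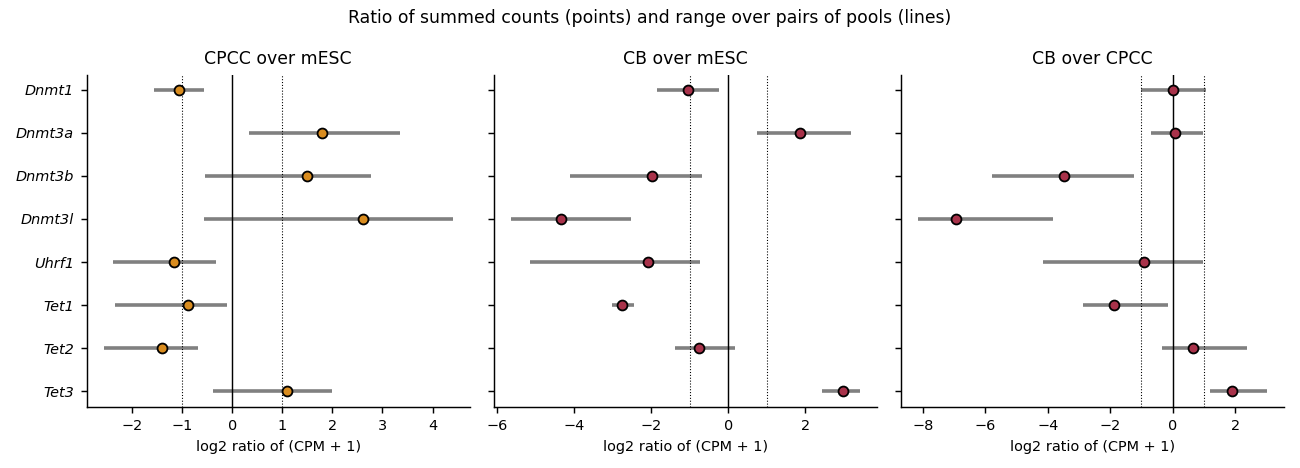
Log2 ratio of (CPM + 1) for each gene in the 3 pairs of cultures (horizontal axis), with the pooled ratio as a point, the range over all pairs of pools as a line and dotted lines at 2-fold. The ratio of Tet3 in CB over mESC (2.98) has a narrow range of 2.43 to 3.41, whereas that of Dnmt3l in CPCC over mESC reaches from -0.57 to 4.40.

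The CB comparison asks what differs once the stem cells have formed beating bodies. Against mESC, 2 of the 8 genes were at least 2-fold higher in CB, Tet3 (2.98) and Dnmt3a (1.86), against 29.4% of 11779 genes. At least 2-fold lower were 5 of 8, against 15% of all. These were Dnmt3l (-4.34), Tet1 (-2.75), Uhrf1 (-2.08), Dnmt3b (-1.99) and Dnmt1 (-1.04), and Tet2 had -0.75. Pairs of pools reached from -5.14 to -0.73 for Uhrf1 and from -4.10 to -0.68 for Dnmt3b, so their size depends on the pool. The value of Dnmt3l rests on 84 counts in CB and on the added 1 CPM. The median over the 8 genes was -1.51, against 0.22 over all genes. Every CB pool lay above every mESC pool for Tet3 and Dnmt3a, against 32.6% of all genes, and below for the 5 lower genes, against 23.2%. Dnmt1 was under 2-fold without mESC pool 3 (-0.999), CB pool 1 (-0.94) or CB pool 3 (-0.68). Without CB pool 1, Tet2 was at -1.02.

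Against CPCC, Tet3 alone was at least 2-fold higher in CB (1.89), against 18.5% of 12183 genes. Lower were 3 of 8, Dnmt3l (-6.95), Dnmt3b (-3.49) and Tet1 (-1.87), against 9.29% of all. Over pairs of pools these reached from -8.15 to -3.84 for Dnmt3l, -5.78 to -1.23 for Dnmt3b and -2.87 to -0.15 for Tet1. The CB pools lay above all CPCC pools for Tet3, against 21.5% of all genes, and below for the same 3 lower genes, against 12%. Dnmt1 (0.01) and Dnmt3a (0.07) had summed levels close to those of CPCC, Uhrf1 had -0.93 and Tet2 0.66. Leaving out a pool put Dnmt1 between -0.64 (CB pool 2) and 0.41 (CPCC pool 1), and Dnmt3a between -0.40 (CPCC pool 2) and 0.72 (CPCC pool 1). The median over the 8 genes was -0.46, against 0.15 over all. Without CPCC pool 1, Tet1 was at -0.43 and Tet2 at 1.58. Uhrf1 was at -1.48 without CPCC pool 2 and at -2.75 without CB pool 2. The 3 comparisons share samples, so their values are side by side and not independent.

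Pou5f1, the pluripotency factor Oct4, split CPCC into groups that differed in most of these genes. It was detected in 94.4% of mESC cells and 55.4% of CPCC cells, and was not listed in CB. In CPCC, 96 cells had 10 CPM or more of Pou5f1 and 78 had less. Of all these cells 4 lay between 5 and 20 CPM. In the cells with Pou5f1, Dnmt3l had 312 CPM, against 0.299 CPM in those without. Tet1 had 270 against 5.34 CPM, and Dnmt3b 272 against 11.6 CPM. Tet2 (35.9 against 7.50 CPM), Uhrf1 (128 against 33.3 CPM), Dnmt3a (101 against 27.98 CPM) and Dnmt1 (74.6 against 31.2 CPM) differed less, all in the same direction. Tet3 was the opposite, with 4.44 CPM in cells with Pou5f1 and 31.3 CPM in those without. So 7 of the 8 genes were at least 2-fold higher in cells with Pou5f1, against 19.9% of 11489 genes, and 1 lower, against 24%. The directions were the same in each pool, and only Tet2 in pool 2 was under 2-fold (log2 ratio 0.998). Dnmt3b had 292 against 33.9 CPM in pool 1 and 205 against 5.62 CPM in pool 2, and Tet3 had 2.74 against 28.04 CPM and 10.1 against 32.1 CPM.

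The share of cells followed. At 5 or more counts, Dnmt3l was found in 72.9% of the cells with Pou5f1 and 3.85% of those without. Tet1 was found in 95.8% and 25.6%, Dnmt3b in 94.8% and 21.8%, and Tet3 in 22.9% and 61.5%. At 1 or more counts, Dnmt3l was in 17.9% of the cells without Pou5f1, where its level was still 0.299 CPM. Median depth was 1333250 counts with Pou5f1 and 1675320 without.

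Taking only the cells with 10 CPM or more of Pou5f1 in both cultures (96 in CPCC, 196 in mESC) gave other ratios over mESC. This selection was chosen after the values were seen. Dnmt3l was 312 CPM in CPCC and 24.6 CPM in mESC (log2 ratio 3.61). Dnmt3b was 272 and 49.0 CPM (2.45), and Dnmt3a 101 and 17.9 CPM (2.43). These 3 DNMT3 genes were at least 2-fold higher in CPCC, against 7.06% of 10617 genes, and none of the 8 was 2-fold lower, against 5.5%. Tet1 was level at 270 and 248 CPM (0.12). Dnmt1 (-0.55), Uhrf1 (-0.50), Tet2 (-0.67) and Tet3 (-0.67) were under the limit. Both CPCC pools lay above all mESC pools for the 3 DNMT3 genes, against 17.7% of all genes, and below them for Dnmt1, Uhrf1 and Tet2, against 18.5%. Dnmt3b held 292 and 205 CPM in the CPCC pools against 73.0, 34.0 and 42.8 CPM in mESC, and Dnmt3l 362 and 147 CPM against 12.4, 15.7 and 50.7 CPM. For Dnmt3a the values were 109 and 74.4 CPM against 31.9, 13.7 and 8.09 CPM. Those of Dnmt1 were 77.0 and 66.5 CPM against 117, 98.9 and 116 CPM. Culture and table cannot be told apart here, since the CPCC table alone held whole counts.

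The 78 CPCC cells without Pou5f1 had summed levels near those of CB for Dnmt3b and Dnmt3l. Dnmt3b was 11.6 CPM there and 11.5 CPM in CB, and Dnmt3l 0.299 and 0.248 CPM. The Dnmt3b values average unlike pools, 33.9 and 5.62 CPM in these CPCC cells and 3.30 to 20.6 CPM in the CB pools. Dnmt3a (27.98 and 67.0 CPM), Tet3 (31.3 and 69.8 CPM), Tet2 (7.50 and 34.3 CPM) and Tet1 (5.34 and 36.2 CPM) were at least 2-fold higher in CB, and none of the 8 was lower. Over 12031 genes with a mean of 5 CPM or more, which Dnmt3l did not reach, 17.5% were higher and 6.68% lower. Uhrf1 (33.3 and 41.5 CPM) and Dnmt1 (31.2 and 52.9 CPM) were under 2-fold. For Tet1 this turned the direction of the comparison over all cells, but the size rests on CPCC pool 2. Tet1 was 18.0 CPM in the 17 pool 1 cells without Pou5f1 and 1.97 CPM in the 61 of pool 2. The log2 ratio of CB over these CPCC cells was 2.55 in all and 0.96, under 2-fold, without CPCC pool 2. Without that pool Dnmt3b was at -1.48. Without CB pool 2, Uhrf1 was at -1.51, and without CB pool 3 Uhrf1 (1.01) and Dnmt1 (1.10) were past 2-fold. Dnmt3a, Tet2 and Tet3 were past it with any 1 pool left out.

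**Figure D4:**
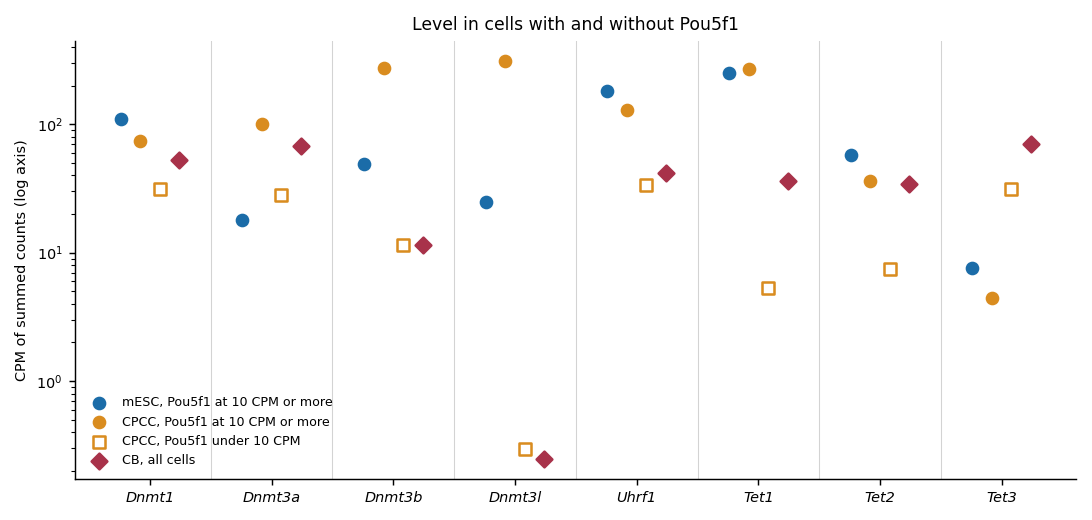
Level of the 8 genes in CPM of summed counts on a log axis, for mESC and CPCC cells with 10 CPM or more of Pou5f1, CPCC cells with less, and all CB cells. Dnmt3a, Dnmt3b and Dnmt3l were higher in CPCC cells with Pou5f1 than in mESC cells with Pou5f1, Tet1 was nearly equal (270 and 248 CPM), and Dnmt3l was 0.299 CPM in CPCC cells without Pou5f1.

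Mki67, a gene of cycling cells, was used to ask whether the levels follow proliferation. It had 104 CPM in mESC, while CPCC had 100 CPM and CB 154 CPM, and was detected in 93.0%, 77.7% and 37.9% of cells. In CB, 73 cells had 10 CPM or more of Mki67 and 150 had less. Uhrf1 was 97.7 CPM in the former and 10.9 CPM in the latter (log2 ratio 3.05). Dnmt3b (20.6 and 6.51 CPM) and Dnmt1 (89.6 and 33.0 CPM) were also at least 2-fold higher with Mki67. So were 11% of 12382 genes, and 16% were lower, among them none of the 8. Tet1 was level (37.0 and 35.7 CPM), and Tet3 (83.8 and 62.2 CPM), Dnmt3a (81.3 and 59.3 CPM) and Tet2 (39.1 and 31.7 CPM) differed less than 2-fold. Cells with Mki67 were uneven over pools, with 20, 50 and 3 in pools 1 to 3. Uhrf1 was higher with Mki67 in each pool (57.4 against 5.83, 108 against 46.2 and 81.0 against 1.89 CPM). Dnmt1 was 49.8 against 28.9, 99.3 against 48.0 and 83.9 against 29.7 CPM, so it was under 2-fold in pool 1 (log2 ratio 0.77). Dnmt3b was not higher in each, with 0.0471 against 16.7 CPM in pool 1.

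In mESC, Uhrf1 was 174 CPM in 178 cells with Mki67 and 224 CPM in 29 without, and was lower with Mki67 in each pool. The split is coarse, since 13 of the 207 cells lay between 5 and 20 CPM of Mki67. Dnmt1 was 109 and 118 CPM, but in pool 3 it was 121 CPM with and 77.8 CPM without. Dnmt3b was 47.9 and 54.0 CPM, and 44.7 and 9.42 CPM in pool 3. Tet1 was 258 and 173 CPM, and higher with Mki67 in each pool. In CPCC, Mki67 and Pou5f1 went together, with 89 cells holding both, 7 Pou5f1 alone, 33 Mki67 alone and 45 neither. Among the cells without Pou5f1, Uhrf1 was 53.8 CPM with Mki67 and 18.1 CPM without. Dnmt1 was closer (35.2 and 28.3 CPM), Dnmt3b was 20.2 and 5.11 CPM, and Tet3 was lower with Mki67 (20.2 and 39.5 CPM). Dnmt3l (0.433 and 0.199 CPM) and Tet1 (6.04 and 4.82 CPM) were low in both.

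Rank correlations over cells are given as a description, as Spearman's rho averaged over pools, with no p. Cells share pool and chip, and depth differs between them. Over 207 mESC cells, rho with Mki67 was 0.23 for Tet1, 0.21 for Tet2 and between -0.15 (Uhrf1) and 0.06 for the others. Toward Pou5f1 only Uhrf1 exceeded 0.2 (0.30), with 0.03, 0.36 and 0.51 in the pools. With the summed level of 20 S phase genes, Uhrf1 had 0.47 and Dnmt1 0.08. For Dnmt1 the value depended on the measure. Over all mESC cells without averaging over pools its rho was 0.10, and Pearson's correlation of log2 levels was 0.41. Over 174 CPCC cells, Pou5f1 ran with Tet1 (0.72), Dnmt3b (0.65), Uhrf1 (0.54) and Dnmt3l (0.53), and against Tet3 (-0.43). The S phase list ran with Uhrf1 (0.70), Dnmt3b (0.56), Tet1 (0.56) and Dnmt1 (0.54). Over 223 CB cells, Uhrf1 (0.47) and Dnmt1 (0.40) ran with the S phase list, and the other 6 lay between -0.09 and 0.10. With Mki67 it was 0.38 for Uhrf1, 0.31 for Dnmt1 and 0.17 for Tet3. Without averaging over pools the CB values with the S phase list were 0.72 for Uhrf1 and 0.58 for Dnmt1. The pools differed here, with a summed S phase level of 1400, 3251 and 760 CPM in CB pools 1 to 3.

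Among each other the genes were linked mainly in CPCC. The highest values there were Dnmt3l with Tet1 (0.60), Dnmt3b with Tet1 (0.55), Dnmt3b with Dnmt3l (0.51) and Uhrf1 with Tet1 (0.50). Tet3 was negative with all other 7, from -0.32 with Dnmt3l to -0.09 with Tet2. In mESC no pair exceeded 0.22, and in CB the highest among genes found in more than 1 cell was Dnmt1 with Uhrf1 (0.31).

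**Figure D5:**
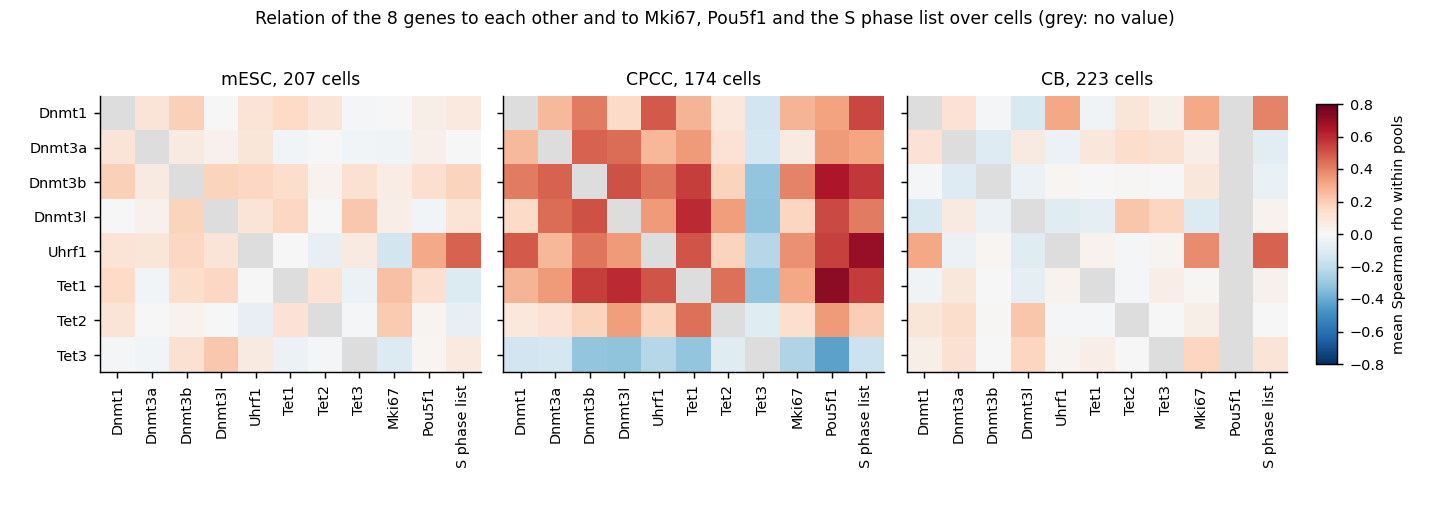
Mean Spearman rho within pools over cells of each culture, for the 8 genes (rows) against each other and against Mki67, Pou5f1 and the summed S phase list (columns), from blue (negative) to red (positive). CPCC shows positive values for 7 genes and negative ones for Tet3, while in CB the highest values are those of Uhrf1 and Dnmt1 with the S phase list (0.47 and 0.40), with Mki67 (0.38 and 0.31) and with each other (0.31).

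The genes most like each member were taken from those detected in at least 50% of cells of a culture. For Tet1 in CPCC, Pou5f1 was first of 8418 genes (0.72), before Hsp90aa1 (0.70) and Gm5844 (0.70). For Dnmt3b in CPCC they were L1td1 (0.76), Mkrn1 (0.73) and Snrpn (0.72), with Pou5f1 at place 26. For Uhrf1 they were Gm5648 (0.75), Mcm7 (0.65) and Dut (0.65) in CPCC, and in mESC they included Gm5648 (0.72) and Ppil1 (0.45), where Gm5648 is the pseudogene that shares its sequence. For Dnmt1 they were Tk1, Mcm7 and Nol7 in CPCC (0.50 to 0.52) and Gins2, Lig1 and Nasp in CB (0.37 to 0.42). Tet2 in CPCC was most like Tet1 (0.44), Zfp57 (0.43) and Usp28 (0.42), and Dnmt3a most like Sinhcaf, Jarid2 and Tcea3 (0.50 to 0.52). Tet3 in CB had no value over 0.29, the one with Vasp. In mESC the highest values for Dnmt1, Dnmt3a, Dnmt3b, Tet1 and Tet2 were 0.32 to 0.36.

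Some other genes of methylation upkeep were also lower in CB than in mESC. Of 7 partners of maintenance, 4 were at least 2-fold lower in CB than in mESC and 1 was higher, with a median log2 ratio of -1.35. Over all genes 15% were lower and 29.4% higher, with a median of 0.22. Hells, a chromatin remodeler needed for methylation, had 248 CPM in mESC, while CPCC had 158 CPM (241 and 80.4 CPM by pool) and CB 59.9 CPM (42.5, 122 and 10.1 CPM). Pcna, the replication clamp, had 500, 307 and 185 CPM, and Usp7, which stabilizes Uhrf1 and Dnmt1, 300, 178 and 89.7 CPM. Uhrf2, the paralog of Uhrf1, was the higher gene with 31.1, 43.3 and 106 CPM. None of the 7 passed 2-fold in CPCC over mESC (median -0.55). Of 20 S phase genes, 15 were at least 2-fold lower in CB than in mESC (median -1.82) and 4 in CPCC (median -0.77), against 15% and 7.42% of all genes. Cdc6, which loads the replicative helicase, had 132, 75.9 and 22.0 CPM, and Rrm2, a subunit of ribonucleotide reductase, 563, 332 and 109 CPM.

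Among 8 readers of methylated DNA, 5 were at least 2-fold higher in CB than in mESC and 1, Mbd4, was lower (median 1.52), against 29.4% higher and 15% lower over all genes. Zbtb4 had 0.960 CPM in mESC, while CPCC had 5.37 CPM and CB 24.7 CPM, Mbd1 5.67, 10.7 and 25.3 CPM, and Zbtb33, also called Kaiso, 1.71, 8.15 and 10.8 CPM. In CPCC over mESC, 3 of 8 were higher, Zbtb33, Zbtb4 and Mbd2 (median 0.61). Only 6 of the 8 had a mean of 5 CPM or more, and of these 1, Mbd2, was higher, against 15.8% of all genes at that level. Partners of demethylation were mixed. Of 17 genes, 3 were higher and 2 lower in CB than in mESC (median 0.32), shares no larger than the 29.4% and 15% over all genes. Cxxc4, known to bind Tet2 and promote its loss, had 0.117 CPM in mESC, while CPCC had 0.304 CPM and CB 35.3 CPM. Gadd45g had 2.82, 47.8 and 90.6 CPM, and Parp1 358, 187 and 79.4 CPM. Of 9 genes of methyl donor supply, none was higher and 3 were lower in CB, Shmt1 (180 and 37.6 CPM in mESC and CB), Ahcy and Shmt2 (median -0.04), against 29.4% and 15% of all genes.

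Regulators tied to the DNMT3 genes and to imprints also differed. Prdm14, which represses Dnmt3b and Dnmt3l in naive stem cells, had 77.0 CPM in mESC, while CPCC had 7.56 CPM and CB 0.618 CPM. It was detected in 80.5%, 16% and 2.16% of cells. Dppa3, a maternal factor that limits Uhrf1, had 175 CPM in mESC and 41.0 CPM in CPCC and was not listed in CB. Zfp57, which guards imprints, had 119, 62.6 and 16.1 CPM, and its cofactor Trim28 610, 382 and 185 CPM. Zfp445, another imprint regulator, was highest in CB with 37.9, 51.0 and 105 CPM. Of the 8 genes in this list 2 were at least 2-fold lower in CPCC than in mESC, Prdm14 and Dppa3, and none higher (median -0.67), against 7.42% and 15.8% of all genes. Of 7 listed in both mESC and CB, 2 were higher and 3 lower in CB (median -0.51), against 29.4% and 15% of all genes.

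Germline genes that are known to be silenced by promoter methylation were taken as a list of 16. They summed to 602 CPM in mESC. In CPCC the sum was 160 CPM, with 288 and 40.1 CPM in its pools, and CB listed 8 of them at 11.5 CPM in all. Of 15 listed in both mESC and CPCC, 5 were at least 2-fold lower in CPCC and 1, Taf7l, was higher, with 2.27 CPM in CPCC and 0.578 CPM in mESC (median -0.61). Over all genes with a mean of 5 CPM or more, a level that 10 of the 15 reached and Taf7l did not, 7.42% were lower and 15.8% higher. Dazl, an RNA-binding protein of germ cells, had 239 CPM in mESC, with 183, 217 and 328 CPM in its pools, and 18.0 CPM in CPCC, with 32.6 and 4.24 CPM. Tuba3a had 138 and 11.7 CPM, and Stk31 52.0 and 11.4 CPM. Ddx4 (15.8 and 17.7 CPM) and Sycp3 (14.0 and 14.6 CPM) were nearly level between them. The other genes of these lists are given over whole cultures, whose pools differ as above. Methylation itself was not measured in these tables.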

How the data were processed

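Gene counts per cell were taken as deposited. Per the labels and methods, the authors aligned paired reads of each SMART-Seq library with STAR 2.7 to mm10 (GRCm38) in Partek Flow. The counting model and strand use are not given in the sources used here. The deposited mESC and CB tables hold estimated counts (24.3% and 24.6% of values above 0 lie over 0.01 from a whole number), and the deposited CPCC table holds whole counts. Tables were linked to samples by culture name. In CPCC, 2 columns without a sample, 208 rows without a gene and 23 dates as symbols (0.139% of counts) were left out. The tables list no gene whose highest value is under 1, so an unlisted gene was not set to 0. The planned design took all tables for whole counts, and rounding was applied for thinning, intervals and scaling factors only.

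Counts were summed over all cells of a culture. The 2-fold limit was set on log2 ratios with 1 CPM added. Thinning to 430000 counts left 193 mESC, 157 CPCC and 210 CB cells. Gene positions are from GENCODE M21 (GRCm38), promoters from RefSeq. Python 3.11.15 (numpy 2.4.6, pandas 2.3.3, scipy 1.17.1) was used, with edgeR 4.0.16 and DESeq2 1.42.0 for scaling factors only. The computing of ratios, intervals and correlations was checked on simulated draws with known answers. Those draws leave out the spread between cells of these libraries, so the check does not cover how well the intervals hold here. Named genes were the 8 members, Mki67, Pou5f1, up to 3 highest and 3 lowest genes past 2-fold of each list, and the 3 most alike per member, of which 1 is not reported here. Dnmt3c, Gm5648, Ddx4, Sycp3 and other list genes under 2-fold were named after their values were seen. The members and lists were chosen with earlier results of these data known.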

Additional observations from a re-analysis of the deposited data

How the results depend on the processing

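With 1 sample per culture, no result has a test, and pools are not replicates. Under TMM, DESeq2 size factors, equal weight per cell, a cell filter and pseudocounts of 0.1 and 10 CPM, the numbers of genes past 2-fold stayed within 1.5 times those reported. DESeq2 factors put Tet2 at -1.005 in CB over mESC. TMM, DESeq2 factors and equal weight put Uhrf1 at -1.13, -1.14 and -1.09 in CB over CPCC. Equal weight and the 10 CPM pseudocount put Tet3 at 0.81 and 0.65 in CPCC over mESC, and the latter put Dnmt1 at -0.94 and -0.93 over mESC in CPCC and CB. Leaving out a pool gave 2 to 4 higher and 0 to 4 lower genes in CPCC over mESC, 2 to 2 and 4 to 5 in CB over mESC, and 1 to 2 and 2 to 4 in CB over CPCC. Among cells with Pou5f1, chosen after seeing the data, 3 were higher and 0 lower in CPCC over mESC, and Tet3 turned to -0.67. Against CPCC cells without Pou5f1, 4 were higher and 0 lower in CB (17.5% and 6.68% of all genes), and Tet1 turned to 2.55. Without CPCC pool 2 that ratio was 0.96, and leaving out a pool gave 3 to 6 higher and 0 to 1 lower genes. In mESC the ratio of Tet3 between cells with and without Mki67 (1.04) was -0.29 at a limit of 50 CPM, and that with and without Pou5f1 (-1.42, 11 cells without) was 3.19 at 1 CPM and 0.0717 at 50 CPM. Per kilobase of coding length, the order of the genes changed in each culture. No paired analysis was possible because the labels give 1 sample per group. Dnmt3l in CB rests on 84 counts from 1 cell. With cells thinned to the same depth it was in 0.476% of CB cells, against 34.2% of mESC and 46.5% of CPCC cells.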
